A study of Canis lupus familiaris with 26 samples.

Results

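The oocyte genes ZP2, ZP3, ZP4, BMP15, GDF9, NLRP5, NLRP9, PADI6, KPNA7 and PNLDC1 were followed through RNA-Seq counts of the canine corpus luteum (CL). They are 10 of the 19856 Ensembl genes counted, and each was found in all 26 samples' tables by its identifier. They were selected on the comparison of treated with control samples on day 20, in which they were higher after treatment. Values of day 20 are therefore given as a description, without a test. Days 5, 10 and 30 share no sample with that contrast and were tested.

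Oocytes grow inside ovarian follicles, surrounded by granulosa cells, and build a set of proteins that other cells of the ovary make little or not at all. The zona pellucida is the glycoprotein coat around the oocyte. GDF9 and BMP15 are growth factors of the TGF-beta family that the oocyte secretes toward its granulosa cells, and several NLRP proteins and PADI6 are stored in the oocyte for the first divisions of the embryo. The CL forms from granulosa and theca cells of the follicle after the oocyte has left it with ovulation.

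CL were collected from mixed-breed bitches, whose ages differed and are not given by group, after spontaneous estrus and with the day of ovulation set from circulating progesterone. Treated dogs received firocoxib, an inhibitor of cyclooxygenase 2 (COX2), by mouth at 10 mg per kg each day from ovulation until collection, in groups of 4 dogs on day 5 and of 3 dogs each on days 10, 20 and 30. Control dogs, equal in number on each day, received a placebo per the sample labels, whereas the design text of the series calls them untreated. Whole CL were trimmed from the surrounding ovary, so a sample holds all cell types that stayed with the luteal tissue.

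Total counts lay between 12831896 and 22658950 reads per sample, and no pair of samples within a group was a copy of another. Of 11 luteal genes, the 5 with an identifier (LHCGR, PRLR, PTGFR, CYP19A1 and FDX1) were detected in every sample. STAR, CYP11A1 and the HSD3B genes were not paired with identifiers here, so the check of the tissue rests on those 5. Day 20 treated replicate 3 stood apart, with 38.5 CPM (counts scaled to library size with TMM factors) of FDX1, the electron donor of steroid synthesis. The other day 20 samples had between 666 and 1620 CPM of FDX1. Ratios and sums of day 20 are given with and without this sample. In a bulk sample, fewer cells of a type and less RNA per cell cannot be told apart.

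**Figure D1:**
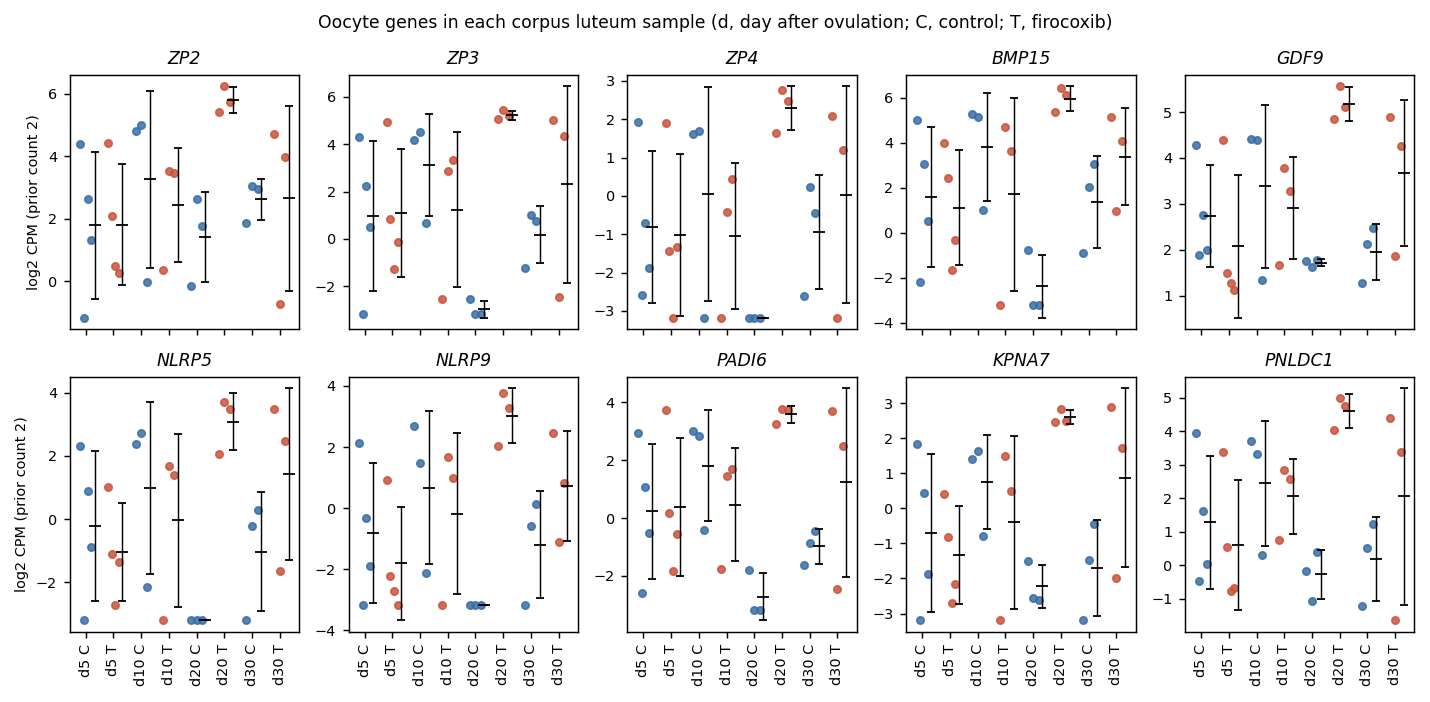
Log2 CPM (prior count 2, vertical axis) of the 10 oocyte genes in the 8 groups (horizontal axis; d, day after ovulation; C, control in blue; T, treated in red), with 1 point per sample and the group mean and SD in black. The groups of days 5, 10 and 30 spread over several log2 units and overlap, whereas day 20 controls lie low and day 20 treated samples high.

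ZP2, ZP3 and ZP4 encode structural proteins of the zona pellucida. On day 20, ZP3 (ENSCAFG00000013648) had 0.0601, 0 and 0 CPM in control replicates 1, 2 and 3, and 33.1, 43.1 and 36.7 CPM in treated replicates 2, 3 and 4. The controls held a single ZP3 read among them, so the pooled ratio of 1970 has a counting interval (95%, exact) from 353 to 77800. Its ratio of mean CPM was 1880, 1740 without treated replicate 3 and 1250 without control replicate 2 or 3, and it was at least 446 without control replicate 1, which held that read. ZP4 (ENSCAFG00000010014) had no read in the 3 controls and 3.01, 6.65 and 5.42 CPM in treated samples, which is at least 88.3-fold higher at a floor of 3 counts over the group. ZP2 (ENSCAFG00000017814) was different in that its controls were well above 0, with 0.781, 6.15 and 3.32 CPM. Its treated samples had 42.5, 75.9 and 53.9 CPM, a ratio of means of 16.8. Without treated replicate 3, the ratio was 14.1 for ZP2 and at least 73.7 for ZP4. The ratio of ZP2 was 28.0 without control replicate 2 and that of ZP4 at least 56.1 without control replicate 3. Floors and intervals of reads cover counting error only.

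Outside day 20, the same genes were high in single dogs of either arm. On day 5, ZP3 had 19.6, 0, 4.55 and 1.30 CPM in control replicates 1, 3, 4 and 5, and 30.4, 1.70, 0.299 and 0.798 CPM in treated replicates 1, 2, 4 and 5. Replicate 1 was the highest of each group, and the groups overlapped. On day 10, ZP3 had 18.1, 22.9 and 1.47 CPM in control replicates 2, 3 and 4, against 0.0611, 7.24 and 10.0 CPM in treated replicates 1, 4 and 5. On day 30, it had 0.321, 1.88 and 1.56 CPM in control replicates 2, 3 and 4, and 32.7, 0.0706 and 20.2 CPM in treated replicates 2, 4 and 5. The day 30 treated group thus held both 2 samples above every control and the lowest sample of that day. ZP2 repeated the pattern on day 30 with 26.4, 0.494 and 15.6 CPM in treated samples and 3.54, 8.20 and 7.59 CPM in controls.

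GDF9 and BMP15 act on granulosa cells, and both take part in follicle growth in mammals. On day 20, BMP15 (ENSCAFG00000016037) had 0.481, 0 and 0 CPM in controls and 40.7, 85.3 and 69.8 CPM in treated samples, a ratio of means of 407, and of 345 without treated replicate 3. Without control replicate 1, the only control with BMP15 reads, it was at least 780. GDF9 (ENSCAFG00000000916) had 3.24, 2.98 and 3.32 CPM in controls and 28.7, 47.2 and 34.3 CPM in treated samples, a ratio of 11.6, and of 9.90 without that sample. GDF9 was the one growth factor with reads everywhere. Its lowest value over all 26 samples was 2.05 CPM, from 36 reads, whereas BMP15 had no read in 3 samples. In the RefSeq gene table UQCRQ, which encodes a mitochondrial complex III subunit, neighbours GDF9. The libraries do not mark strand, so reads of overlapping neighbours could not be told apart.

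The growth factors also differed widely between dogs on the other days. BMP15 had 31.8, 0.111, 8.32 and 1.35 CPM in day 5 control replicates 1, 3, 4 and 5, and 15.7, 5.24, 0.214 and 0.684 CPM in day 5 treated replicates 1, 2, 4 and 5. On day 10, it had 38.2, 35.3 and 1.94 CPM in control replicates 2, 3 and 4, and 0, 25.9 and 12.1 CPM in treated replicates 1, 4 and 5. Control replicate 4 and treated replicate 1 were the low samples of day 10. On day 30, BMP15 had 0.429, 3.94 and 8.15 CPM in control replicates 2, 3 and 4, and 34.8, 1.83 and 16.7 CPM in treated replicates 2, 4 and 5. GDF9 on day 30 had 2.30, 4.25 and 5.41 CPM in controls and 29.5, 3.53 and 19.2 CPM in treated samples. For both genes, treated replicate 4 fell within the range of the day 30 controls.

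NLRP5 and PADI6 belong to the subcortical maternal complex, a protein assembly under the membrane of the oocyte that the early embryo needs, and NLRP9 is a further member of the NLRP family that oocytes express. On day 20, NLRP5 (ENSCAFG00000002501) and NLRP9 (ENSCAFG00000024115) had no read in the 3 controls. Treated replicates 2, 3 and 4 had 4.03, 12.9 and 11.1 CPM of NLRP5, which is at least 165-fold higher at a floor of 3 counts over the group, and at least 133-fold without replicate 3. They had 3.98, 13.7 and 9.52 CPM of NLRP9, at least 160-fold higher, and at least 119-fold without replicate 3. Without control replicate 3, the bounds were 105-fold for NLRP5 and 102-fold for NLRP9. PADI6 (ENSCAFG00000015759) had 0.180, 0 and 0 CPM in controls, from 3 reads, and 9.41, 13.5 and 13.2 CPM in treated samples. Its pooled ratio was 210 with a counting interval from 71.5 to 1020. Its ratio of mean CPM was 200, 188 without treated replicate 3 and 133 without control replicate 2 or 3, and it was at least 143 without control replicate 1. NLRP5 and NLRP9 lie close to each other in the RefSeq table, with 3 protein-coding genes between them, NLRP8 among these. How the counting shared reads between related NLRP genes was not tested.

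PADI6 was uneven among the day 30 treated dogs. It had 12.8, 0.0706 and 5.45 CPM in treated replicates 2, 4 and 5, and 0.214, 0.438 and 0.622 CPM in control replicates 2, 3 and 4. Treated replicate 4 held 1 PADI6 read and was below all controls, whereas the other treated samples were above them. On day 10, PADI6 had 7.90, 7.03 and 0.647 CPM in control replicates 2, 3 and 4, and 0.183, 2.63 and 3.16 CPM in treated replicates 1, 4 and 5. On day 5, it had 7.58, 0.0555, 1.98 and 0.594 CPM in controls and 13.3, 1.03, 0.171 and 0.570 CPM in treated samples. NLRP5 on day 30 had 0, 0.751 and 1.12 CPM in controls and 11.1, 0.212 and 5.39 CPM in treated samples, so treated replicate 4 was again low. NLRP9 had no read in 7 of the 26 samples and reached 6.28 CPM outside day 20, in day 10 control replicate 2.

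KPNA7 encodes an importin alpha that carries proteins into the nucleus of the oocyte and early embryo, and PNLDC1 encodes the exonuclease that trims piRNAs in germ cells. On day 20, KPNA7 (ENSCAFG00000015125) had 0.240, 0.0609 and 0.0527 CPM in controls and 5.38, 7.03 and 5.57 CPM in treated samples, a ratio of means of 50.8, of 46.4 without treated replicate 3 and of 106 without control replicate 1. PNLDC1 (ENSCAFG00000000740) had 0.781, 0.365 and 1.21 CPM in controls and 16.2, 31.6 and 27.0 CPM in treated samples, a ratio of 31.8, and of 27.5 without that sample. PNLDC1, like ZP2 and GDF9, had reads in all 26 samples. On day 30, KPNA7 had 0, 0.250 and 0.622 CPM in controls and 7.34, 0.141 and 3.19 CPM in treated samples. PNLDC1 then had 0.321, 1.31 and 2.24 CPM in controls and 21.1, 0.212 and 10.3 CPM in treated samples. Treated replicate 4 was within the controls' range for KPNA7 and below it for PNLDC1.

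On day 20 the groups did not overlap for any of the 10 genes, with treated samples higher. Of the 13726 genes tested on that day, 16.1% were separated in this direction. By edgeR 0.102% were DEGs, that is, differentially expressed at an FDR under 0.1 together with a P under 0.01. At the same thresholds DESeq2 called far more, 1479 of the 13726 genes. As the contrast chose the 10 genes, nothing is read from their separation. Only for ZP2, ZP3 and BMP15 did all 3 day 20 treated samples also exceed each of the 20 samples of the other days. The share of all genes that did so was not counted, so nothing is read from this either.

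The 10 genes were high or low together from dog to dog. Summed over them, day 5 controls had 131, 4.72, 34.8 and 11.3 CPM in replicates 1, 3, 4 and 5, and day 5 treated samples had 121, 17.3, 4.87 and 6.38 CPM in replicates 1, 2, 4 and 5. On day 10, the sums were 143, 143 and 9.18 CPM in control replicates 2, 3 and 4, and 6.05, 77.3 and 58.6 CPM in treated replicates 1, 4 and 5. On day 30, they were 7.18, 22.7 and 28.9 CPM in control replicates 2, 3 and 4, and 185, 6.92 and 100 CPM in treated replicates 2, 4 and 5. Each of these groups thus had at least 1 sample below 10 CPM, and all 6 groups overlapped. Day 20 controls, with 5.77, 9.56 and 7.90 CPM, resembled the low samples of the other days. Day 20 treated samples had 187, 337 and 267 CPM. The highest of the 20 samples outside day 20 was 39.2 times the lowest, and in order of their sums no sample exceeded the one before by more than 1.68-fold, so they did not fall into separate clusters.

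**Figure D2:**
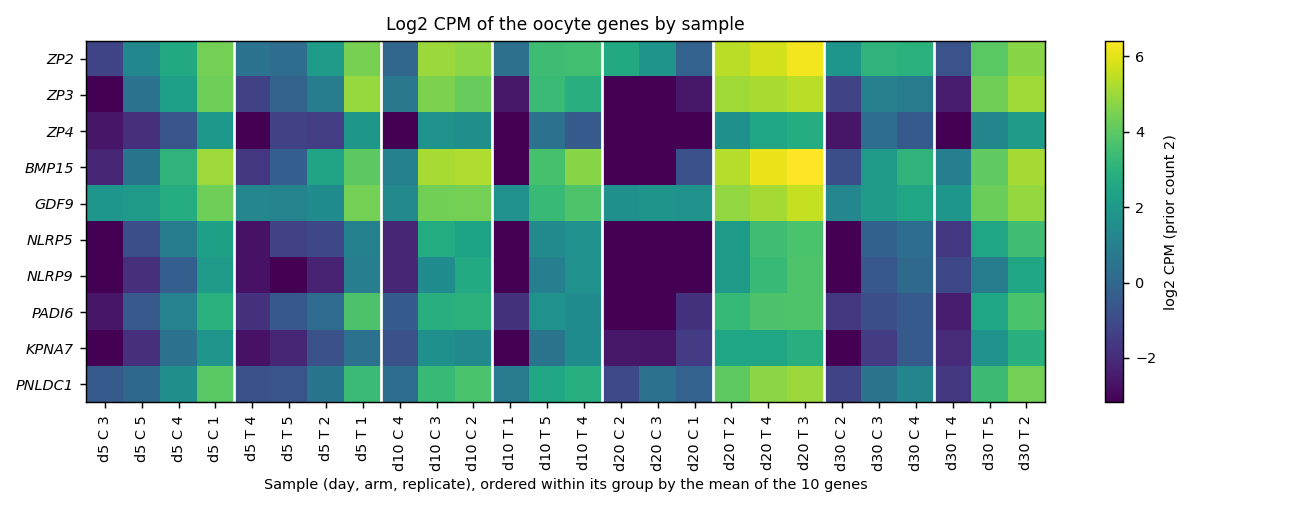
Log2 CPM (prior count 2, colour) of the 10 genes (rows) in the 26 samples (columns), ordered within each group by the mean of the genes, with white lines between groups. Bright and dark columns run through all 10 rows, and GDF9 is the row that never turns dark.

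In 4 groups 1 sample was the highest for all 10 genes, namely day 5 control replicate 1, day 5 treated replicate 1, day 20 treated replicate 3 and day 30 treated replicate 2. In 6 groups 1 sample was the lowest, or tied as the lowest, for all 10. All 10 genes were at 1 CPM or more together in 10 samples, of which 7 lay outside day 20. In a further 10 samples at least 1 of the genes had no read. The spread within groups was large. Over the 6 groups outside day 20, the within-group SD had a median of 2.22 log2 units over the 10 genes and of 0.60 over the 14171 genes kept. It was highest for ZP3, at 2.93 log2 units, which 0.0212% of the genes kept exceeded. GDF9 varied least, at 1.35 log2 units. In the same samples, a median of 82.8% of the genes' sum of squares lay within groups, against 64.0% for all genes kept.

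Whether the genes varied together was tested in the 20 samples of days 5, 10 and 30, after the group mean had been removed from each log2 CPM. All 45 pairs were positively correlated, with Pearson's r between 0.852 and 0.984 (median 0.938) and Spearman's rho between 0.841 and 0.982 (median 0.931). In two-sided permutation tests with 100000 resamples within groups, the highest P adjusted over the 45 pairs was 0.0002 for r and 0.00027 for rho. The smallest P that these resamples can give is 1e-05. Without the 2 samples farthest from the median of the first gene, r lay between 0.880 and 0.977. ZP3 and PADI6 were the closest pair (r = 0.984) and BMP15 and PNLDC1 the loosest (r = 0.852). BMP15 had the lowest median r with the other genes (0.901) and NLRP5 the highest (0.951). The correlation of pairs of other genes was not computed, so the share of all pairs that correlate as closely is not known. All values of a sample come from 1 library, and the labels name no batch.

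**Figure D3:**
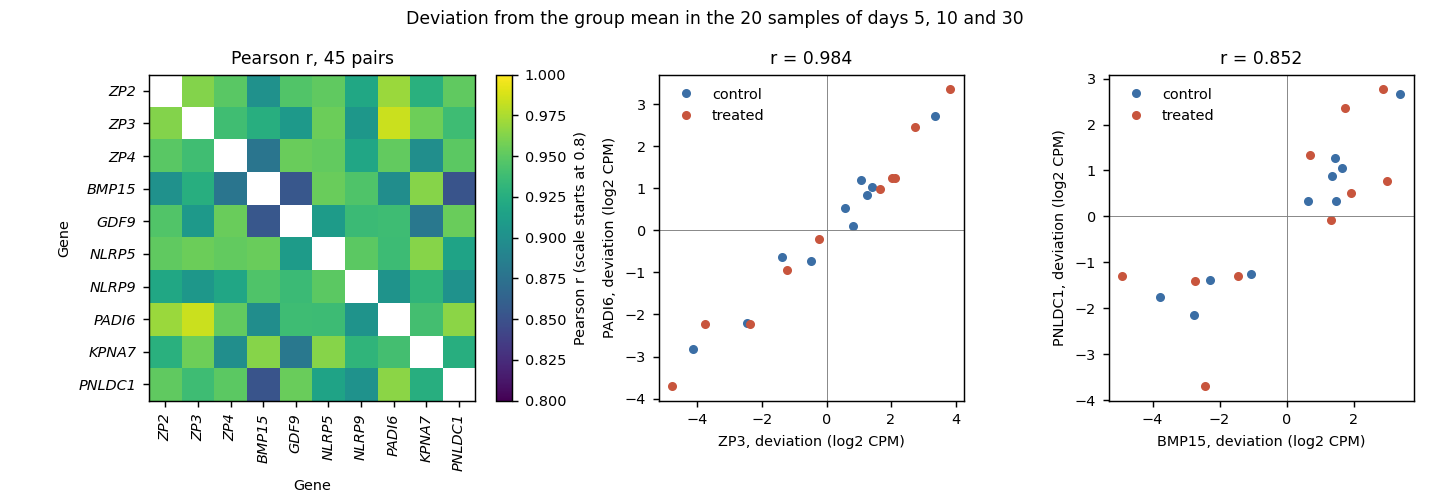
Pearson's r of the 45 gene pairs (left; colour scale from 0.8 to 1) and the deviations from the group mean in log2 CPM for the closest pair, ZP3 and PADI6, and the loosest, BMP15 and PNLDC1 (20 samples; control blue, treated red). In both plots the points of either arm run from the lower left to the upper right.

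The question of whether COX2 inhibition altered these genes on days that did not choose them was addressed with edgeR's quasi-likelihood test over all genes. All 10 were tested in every contrast, as each reached an average of 10 reads in 1 group or more. On day 5, none was a DEG by edgeR or DESeq2, which gave no P for ZP4 and GDF9. Over all genes, 0% were DEGs by edgeR and 0.733% by DESeq2. None of the 10 had an unadjusted edgeR P under 0.05, against 11.8% of genes. The log2 fold changes of treated over control ran from -1.46 ± 1.52 (SE) for NLRP9 to 0.57 ± 1.35 for PADI6, with a median of -0.45 and 2 genes higher in treated samples. The median over all genes was 0.03. This direction rested on single dogs. Without control replicate 1 the median was 1.15, with 7 of the 9 genes tested higher, and without treated replicate 1 it was -2.60, with all 10 lower.

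On day 10, all 10 genes were lower in treated samples, with log2 fold changes from -1.65 ± 1.39 (SE) for ZP4 to -0.57 ± 1.15 for KPNA7 and a median of -1.02. The median over all genes was 0.02. None was a DEG by edgeR or DESeq2, by which 0% of the 13416 genes tested were DEGs in either tool. None had an unadjusted P under 0.05, against 0.902% of genes. When each sample was left out in turn, the median stayed between -1.62 and -0.45.

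On day 30, all 10 genes had higher means in treated samples. Their log2 fold changes had a median of 2.78, against 0.05 over all genes tested. PADI6 had the largest difference, 3.97 ± 1.29 (SE), followed by ZP3 with 3.96 ± 1.41, KPNA7 with 3.74 ± 1.37, NLRP5 with 3.30 ± 1.36 and PNLDC1 with 3.17 ± 1.25. GDF9 differed by 2.25 ± 0.71 and ZP2, the smallest, by 1.27 ± 0.99. None was a DEG by edgeR, by which 0% of genes were DEGs, and their lowest FDR was 0.599. In the same edgeR test 6 of the 10 had an unadjusted P under 0.05, against 8.14% of genes. DESeq2 called PADI6 alone (FDR = 0.081), with 0.879% of genes called. PADI6 averaged 7 reads in the day 30 controls, below the filter of 10, and entered the test only through the treated samples, in which it was higher. The same holds for ZP4, NLRP9 and KPNA7, so these counts are no support for a difference. Without the filter, 6 of the 10 likewise had an unadjusted P under 0.05, against 1179 of 16697 genes. No gene separated the groups, in contrast to 5.77% of genes with all treated samples above all controls, since treated replicate 4 was low throughout. Without treated replicate 4, all 10 had an unadjusted P under 0.05, against 568 of 13259 genes. Without treated replicate 2 none had, against 1230 of 13139 genes, and there was still no DEG. As the 10 genes were high or low together in a dog, such counts are not counts of independent results.

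**Figure D4:**
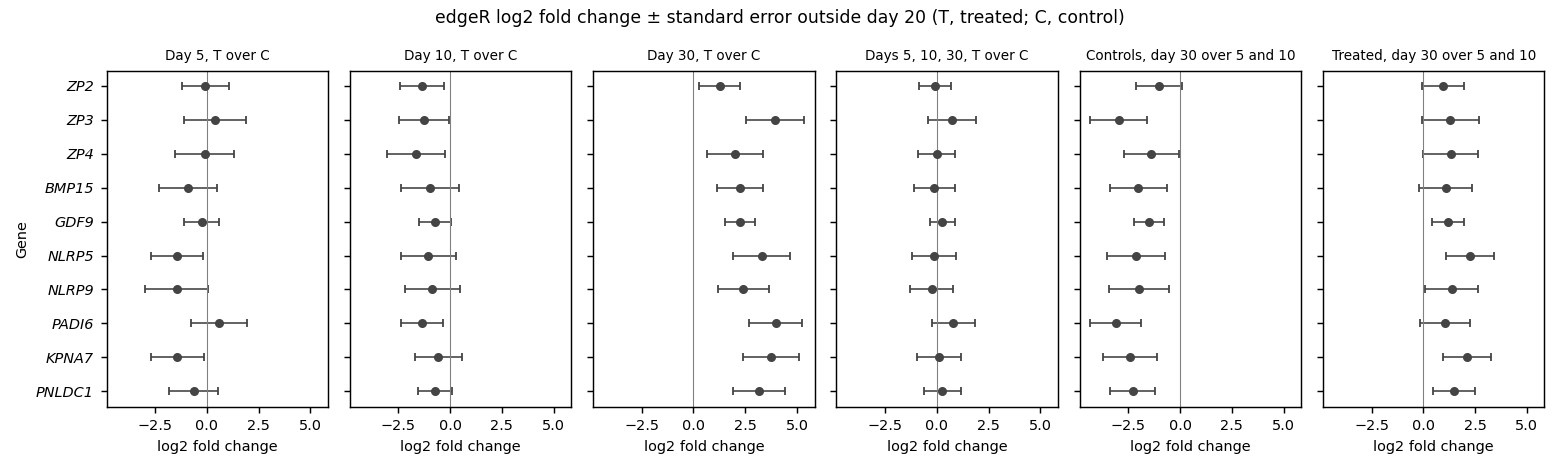
Log2 fold change (horizontal axis) with standard error for the 10 genes (rows) by edgeR in 6 contrasts that leave out day 20 (T, treated; C, control). All 10 points lie right of 0 on day 30, left of 0 on day 10, and on both sides in the contrast over all 3 days.

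With days 5, 10 and 30 together and day as a covariate, the log2 fold changes of treated over control lay between -0.25 and 0.80, with a median of 0.05 and 5 genes on each side of 0. None was a DEG by edgeR or DESeq2, with 0% and 0.0143% of genes called, and none had an unadjusted P under 0.05, against 5.82% of genes. Leaving out day 5 control replicate 1 put all 10 genes higher in treated samples (median 0.72), and leaving out day 5 treated replicate 1 put all 10 lower (median -0.48). The difference of the treatment effect between days was tested as well. Between days 30 and 10 it ran from 2.52 to 5.22 log2 units, with 4 of the 10 genes at an unadjusted P under 0.05, against 5.23% of all genes. Between days 30 and 5 it ran from 1.21 to 5.04, with 2 of the 10 against 10.6% of all genes, and between days 10 and 5 from -1.87 to 0.90, with 0 against 1.75%. None of these passed the thresholds in edgeR's interaction test, with 0 genes of any kind called, and the lowest FDR among the 10 genes was 0.468. Because the 10 genes varied together from dog to dog, their counts at an unadjusted P under 0.05 are no support for a difference between days.

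The effect of time was examined within each arm, as day 30 over days 5 and 10. The fold changes had opposite signs in the 2 arms, with none of the 10 genes a DEG by edgeR in either. The difference between the arms in the change up to day 30 was tested only against day 5 and against day 10 separately. These are the differences of the treatment effect between days given above, which passed the thresholds for 0 genes. With days 5 and 10 pooled, the difference between the arms was not tested. In control samples, all 10 genes were lower on day 30. Log2 fold changes ran from -3.12 ± 1.24 (SE) for PADI6 to -1.01 ± 1.10 for ZP2, and their median was -2.07. Here 12.7% of all genes were DEGs by edgeR and 17.1% by DESeq2, which called PADI6 (FDR = 0.018). PADI6 was also the one gene with an unadjusted edgeR P under 0.05, against 25.8% of genes, and its edgeR FDR was 0.138. With an average of 7 reads on day 30, PADI6 entered this test only through days 5 and 10, in which it was higher, as did ZP4, NLRP9 and KPNA7. Without day 5 control replicate 3, the lowest of its group, edgeR called PADI6 too (FDR = 0.056). In treated samples, all 10 genes were higher on day 30, with a median of 1.31, from 0.97 ± 1.01 for ZP2 to 2.26 ± 1.16 for NLRP5. Neither tool called any of them, against 8.24% of genes by edgeR and 15.5% by DESeq2, and none had an unadjusted P under 0.05, against 24.7%. The median rose to 2.08 without day 5 treated replicate 1 and fell to 0.47, with 9 of 10 genes higher, without day 30 treated replicate 2. Both contrasts share their day 30 samples with the day 30 contrast above.

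Other genes known from oocytes were taken from a list of 44, of which 19 had an identifier. These identifiers come from the study's lists of DEGs, so the 19 are not independent evidence of a direction. None was called by edgeR or DESeq2 on day 5, where 17 were tested, on day 10 or over the 3 days together. Over all genes, edgeR called 0% in each of these contrasts and DESeq2 0.733%, 0% and 0.0143%. On day 30, DESeq2 called 1 of the 19 genes, against 0.879% of all genes, and edgeR none. This was STK31, a germ cell kinase-like protein, with 9.56 CPM on average in treated and 0.683 CPM in control samples (log2 fold change 3.95 ± 1.30, SE, and FDR = 0.599 in edgeR, 0.076 in DESeq2). In control samples, day 30 over days 5 and 10, edgeR called 1 of the 18 genes tested, against 12.7% of all genes, and DESeq2 called 4, against 17.1%. By both tools this included KIT, the receptor of stem cell factor, which was higher on day 30 with 95.6 against 45.7 CPM (log2 fold change 1.06 ± 0.24, FDR = 0.020). DESeq2 also found the germ line genes ZAR1, ZAR1L and MAEL lower, of which ZAR1 and ZAR1L averaged under 10 reads on day 30 and entered the test only through days 5 and 10. In treated samples neither tool called any over time, against 8.24% of all genes by edgeR and 15.5% by DESeq2.

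The genes with the pattern most like the 10 were found by the correlation of log2 CPM with their mean, among the 14161 other genes kept. Over the 20 samples outside day 20, the closest with a symbol were ADAD1 (r = 0.978), FKBP6 (r = 0.976), NLRP8 (r = 0.963), EIF4E1B (r = 0.951) and PATL2 (r = 0.950). Over all 26 samples they were FKBP6 (r = 0.983), ADAD1 (r = 0.976), PATL2 (r = 0.969), VRTN (r = 0.965) and NLRP8 (r = 0.962). The 26 include the day 20 samples that chose the 10 genes, so the latter values are description only. Group means were not removed in either ranking. Symbols come from the study's lists of DEGs, so only genes of those lists could be named. In all, 27 genes exceeded r = 0.9 over the 20 samples, while the median of all genes was -0.02. FKBP6 and ADAD1 are known from germ cells, and EIF4E1B and PATL2 bind the translation machinery or mRNA of oocytes. All were low, with at most 12.2 CPM outside day 20, for NLRP8.

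The genes kept different proportions to each other from dog to dog, which was described as reads per ZP3 read in the 17 samples with at least 20 ZP3 reads. PADI6 varied least, from 0.233 to 0.606 reads per ZP3 read, a 2.60-fold range. PNLDC1 varied 4.26-fold, GDF9 5.04-fold, ZP2 8.13-fold, and BMP15, KPNA7, NLRP9 and NLRP5 between 10.0-fold and 11.4-fold. ZP4 ran from 0 to 0.567 reads per ZP3 read. The lowest BMP15 proportion was 0.516, in day 5 treated replicate 1, and the highest 5.24, in day 30 control replicate 4. Proportions in samples with few reads, such as the 25 ZP3 reads of the latter, are imprecise.

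**Figure D5:**
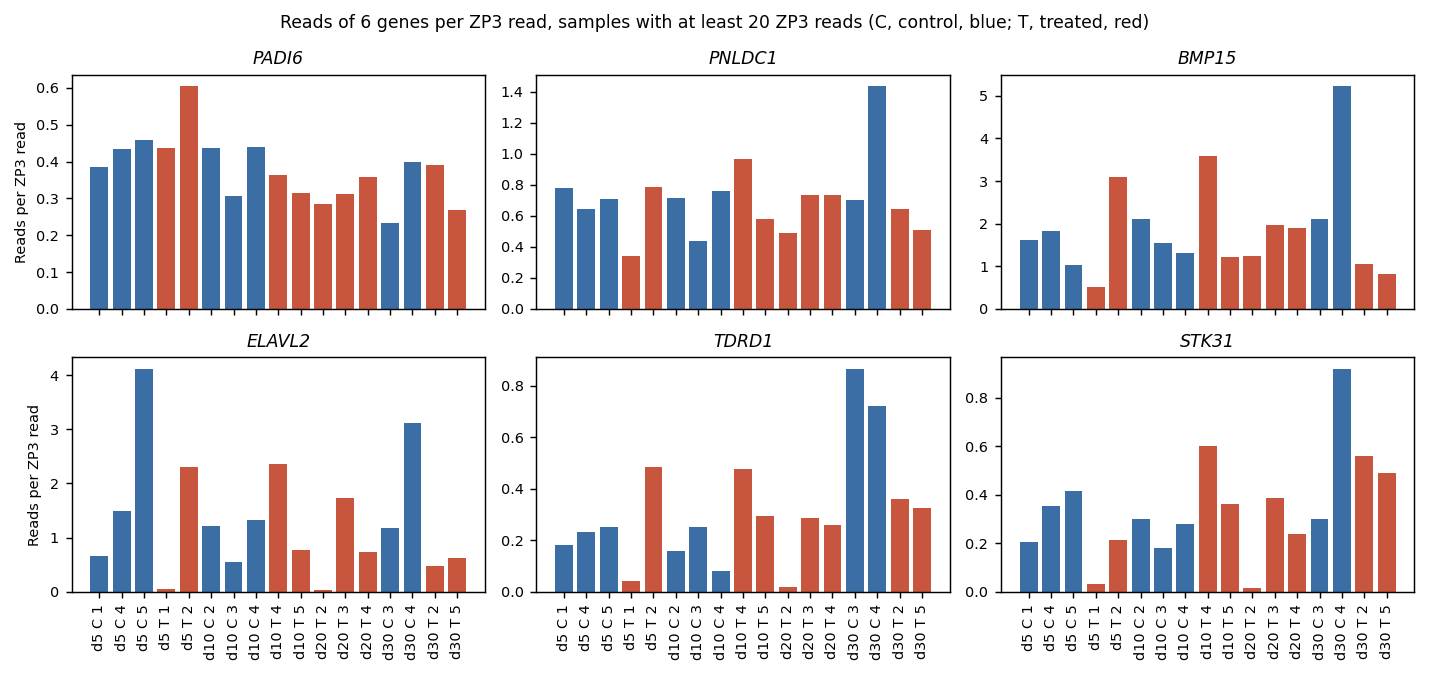
Reads per ZP3 read (vertical axis, from 0) of PADI6, PNLDC1, BMP15, ELAVL2, TDRD1 and STK31 in the 17 samples with at least 20 ZP3 reads (bars; control blue, treated red). PADI6 bars are close to each other, and the bars of ELAVL2, TDRD1 and STK31 are near 0 in day 5 treated replicate 1 and day 20 treated replicate 2.

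Some of the other oocyte genes were far less even. ELAVL2, an RNA-binding protein of neurons and oocytes, had 24 reads to 426 ZP3 reads in day 5 treated replicate 1 and 21 to 615 in day 20 treated replicate 2. In the other 15 samples it had between 0.466 and 4.12 reads per ZP3 read. The germ line genes TDRD1 and STK31 were lowest in the same 2 samples, with 0.0399 and 0.0305 reads per ZP3 read in the day 5 sample and 0.0179 and 0.0146 in the day 20 sample. DDX4, the germ cell RNA helicase VASA, had 2 reads to 615 ZP3 reads in day 20 treated replicate 2, but 83 to 894 and 34 to 726 in treated replicates 3 and 4. These genes were low relative to ZP3, not throughout in CPM. In day 5 treated replicate 1, TDRD1 (1.21 CPM), STK31 (0.926 CPM) and DDX4 (0.712 CPM) were each the highest of their group. NOBOX, a transcription factor of the oocyte, did not share the pattern, with 0.113 and 0.0862 reads per ZP3 read in the same 2 samples against a median of 0.0615. Of the 10 genes, NLRP5, NLRP9 and KPNA7 also had their lowest proportions in day 5 treated replicate 1, at 0.0634, 0.0587 and 0.0399. BMP15, GDF9 and PNLDC1 were lowest there too, at 0.516, 0.69 and 0.338, whereas ZP2, ZP4 and PADI6 were not. The same holds for NLRP13 and NLRP8 of the other oocyte genes, at 0.0657 and 0.0634. ZP3, to which all are set, was the highest of its group in that sample, with 30.4 CPM. The genes named here were picked after their values were seen.

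Summed markers of most other cell types also differed between the arms on day 20. Only markers named in the study's lists of DEGs had an identifier, so such differences are partly set by that selection. The 5 luteal genes summed to between 4100 and 7110 CPM in controls and between 453 and 2850 CPM in treated samples, with the lowest sum in replicate 3 and at least 1330 CPM without it. The 7 granulosa genes with an identifier (of 14, such as FSHR and INHA) summed to 3010 CPM or more in controls and at most 2020 CPM in treated samples, with or without replicate 3. This list shares CYP19A1 with the luteal list, and without it the sums were 1770 to 2530 CPM in controls and 672 to 962 CPM in treated samples. The genes of this list went both ways. FSHR was lower in all treated samples than in any control, whereas INHBB, FST, HSD17B1 and GATA4 were higher in all of them. Of these, the follicle growth regulator FST had 1.68, 8.53 and 10.4 CPM in controls and 32.5, 254 and 118 CPM in treated replicates 2, 3 and 4. The 4 genes of theca and stroma (of 7, such as DCN) had between 2760 and 3260 CPM in treated samples against 865 to 2350 CPM in controls. The 6 smooth muscle genes had 433 to 1010 CPM against 150 to 299 CPM. The 2 epithelial genes (of 10, PAX8 and EPCAM) had 33.9 to 91.2 CPM against 13.5 to 32.0 CPM, and the 2 immune genes (of 10, CD68 and AIF1) 14.0 to 20.1 CPM against 9.85 to 12.4 CPM. The 4 endothelial genes (of 7) overlapped, with 245 to 1300 CPM in treated samples and 886 to 1130 CPM in controls. Without treated replicate 3, the lowest treated sums were 949 CPM for endothelium, 2920 CPM for theca and stroma and 455 CPM for smooth muscle, the highest epithelial sum was 40.3 CPM, and the other bounds of these lists were the same. Gene by gene, the luteal PRLR, PTGFR and FDX1 were lower in all treated samples than in any control. The smooth muscle genes MYH11, TAGLN, CNN1 and ACTG2 were higher in all of them. No gene of theca and stroma, epithelium, endothelium or immune cells separated the arms, so those differences lie in the sums only. None of the marker genes was at 0 reads in any sample. Their part in the levels of the oocyte genes was not tested.

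On day 30, the same lists overlapped between the arms for luteal genes, with 4300 to 5530 CPM in controls and 3590 to 6010 CPM in treated samples, and for granulosa genes, with 3200 to 3380 CPM and 2440 to 4710 CPM. The sums of theca and stroma, epithelial, smooth muscle and immune genes overlapped as well. For smooth muscle they were 186 to 327 CPM in controls and 159 to 365 CPM in treated samples. Only the summed endothelial genes, such as PECAM1, were apart, with 1410 to 1720 CPM in controls and 506 to 1010 CPM in treated samples. Treated replicate 4, low in the oocyte genes with a sum of 6.92 CPM, had 506 CPM of the endothelial genes. Replicate 5, with an oocyte sum of 100 CPM, had 528 CPM of the endothelial genes. Replicate 2, with the highest oocyte sum of that group (185 CPM), also had the highest endothelial sum, 1010 CPM. On day 5, smooth muscle genes had 294 to 522 CPM in controls and 668 to 3310 CPM in treated samples, while the oocyte genes and the other lists overlapped. On day 10 only the immune sums were apart, with 25.4 to 31.4 CPM in controls and 20.9 to 24.6 CPM in treated samples. Single marker genes were not compared between the arms outside day 20. As on day 20, these markers come from the study's lists of DEGs, so differences between the arms are partly set by that selection. The part of these cell types was not tested.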

How the data were processed

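RNA-Seq of CL tissue was deposited for 26 dogs in 8 groups by day and treatment, grouped here by the sample labels. Per the labels, poly-A selected libraries were made with a TruSeq v2 kit, and the authors used STAR as the aligner, CanFam3.1 as the genome and featureCounts as the counter of Ensembl genes. The deposited values are raw counts of reads per gene, neither normalized nor filtered. Tool versions are not given in the sources used here. The authors removed 4 samples as outliers, which were not analysed here. Gene symbols came from the identifier lists of the study's supplementary tables (4347 identifiers with a symbol), and RefSeq (UU_Cfam_GSD_1.0) gave only names of neighbouring genes.

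The members, lists and tests were chosen with earlier results of these data known. Named were the 10 members, the called genes of a list of 44 other oocyte genes, and the 5 genes with a symbol whose pattern was most like the members'. Proportions to ZP3, sample sums and FST were added after their values were seen.

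Counts were scaled with TMM factors (edgeR 4.0.16, R 4.3.3), with CPM as the unit, and log2 CPM used a prior count of 2. Genes averaging 10 reads or more in either group compared were tested with edgeR's quasi-likelihood test and Benjamini-Hochberg adjustment over all of them. The SE was the log2 fold change over the square root of F. DEGs met the study's thresholds, an FDR under 0.1 with a P under 0.01. The alternatives were DESeq2 1.42.0, RLE factors, no filter, a fit of all 26 samples, FDR < 0.05, omission of each sample, and the replicate number as a block. Correlations used permutation tests. The fits were tried on simulated data. A gene at 10 reads rests on few reads per sample, so its fold change is imprecise, and P-values measure the spread between these dogs.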

Additional observations from a re-analysis of the deposited data

Results flagged for a closer look

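In the groups of 4 samples (day 5), Dixon's test at its 95% critical value was applied to the CPM of each of the 10 genes, which gave 20 tests. Of these, 11 found a sample standing apart, always the highest one. In day 5 treated samples this was replicate 1 for ZP2 (21.5 CPM), ZP3 (30.4 CPM), ZP4 (3.63 CPM), GDF9 (20.9 CPM), NLRP5 (1.92 CPM), NLRP9 (1.78 CPM), PADI6 (13.3 CPM) and PNLDC1 (10.3 CPM). In day 5 control samples it was replicate 1 for ZP4 (3.73 CPM), NLRP9 (4.27 CPM) and PNLDC1 (15.3 CPM). For normally distributed values, chance flags about 1 in 20 groups. The CPM of these groups were skewed upward, with means above medians, so chance can flag the highest sample more often. The test was not run on log2 CPM. The 10 genes of a sample are also not independent of each other. Groups of 3 samples were not tested in this way.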

How the results depend on the processing

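None of the 10 genes was called by edgeR in the 6 contrasts outside day 20 under RLE factors, no filter, a fit of all 26 samples or FDR < 0.05. DESeq2 called 1 on day 30 and 1 in control samples over time (PADI6 in both). Leaving out single samples gave 0 to 1 in control samples over time and 0 in the other contrasts. Over all genes, DESeq2 called 100 on day 5, 116 on day 30, 2 over days 5, 10 and 30 together and 2110 in treated samples over time, where edgeR called 0, 0, 0 and 1124. On day 20, DESeq2 called 1479 genes where edgeR called 14. The fit of all 26 samples called 806 in control samples over time (1721 in the separate fit) and 1941 in treated samples, and FDR < 0.05 left 291 in treated samples. Without single samples, edgeR called 0 to 1 gene on day 5, 937 to 2253 in control samples over time and 117 to 1549 in treated samples over time. The control count fell to 1055 without day 30 control replicate 3 and to 937 without replicate 4. The treated count fell to 477, 608 and 641 without day 5 treated replicates 2, 4 and 5, and to 349, 136 and 117 without day 30 treated replicates 2, 4 and 5. The causes were not tested. PADI6 on day 5 ran from -2.12 to 2.17 (log2) when single samples were left out. All 45 correlations kept an adjusted P under 0.05 under every alternative and without any sample.

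The replicate numbers of the labels recur between groups, but the study describes no pairing, and same-numbered samples did not deviate together throughout. The correlation of deviations ran from -0.272 to 0.506 in the treatment contrasts, where the highest was replicate 1 of day 5. Over time it ran from -0.248 to 0.356 in control and from -0.132 to 0.674 in treated samples. With the replicate number as a block, none of the 10 genes was called. Over all genes the block called 4 on day 5 and 880 in control samples over time. On day 5 it turned ZP3 to -1.12 and PADI6 to -0.68, so that all 10 genes were lower in treated samples (median -1.21). Of the 10, 3 had an unadjusted P under 0.05, against 1088 of the 13651 genes tested. The block also turned ZP2 on day 30 to -0.087, and KPNA7 and PNLDC1 over days 5, 10 and 30 together to -0.11 and -0.028. On day 10 no paired analysis was possible because the groups share 1 number. Genes at few reads, such as ZP4, NLRP9 and KPNA7 in the low samples, limit the precision of their fold changes at this depth.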
